A study of Bos taurus with 12 samples.

Results

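Complement is a cascade of blood and tissue proteins that tags microbes and dead cells and can puncture membranes. C1q, the recognition unit of the classical pathway, is built from an A, a B and a C chain encoded by C1QA, C1QB and C1QC, and in mammals it is made largely by macrophages. C3 is the hub on which all complement pathways meet, and C8B encodes the beta chain of C8, a subunit of the terminal membrane attack complex. In humans and mice most circulating C3 and C8 comes from the liver, and epithelia, including that of the uterus in rodents, can also make C3.

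The 5 complement components C1QA, C1QB, C1QC, C3 and C8B were followed in bovine endometrium, the lining of the uterus. They were found by the gene names, accessions and descriptions printed with the array's probes, and each had 1 probe among the 6695 gene symbols that could be named. The cows were of the Japanese-Black breed and were biopsied on day 15 of an estrous cycle. Summer (early September) and autumn (mid-November) were compared in both uterine horns, the CL side, next to the ovary with the progesterone-secreting corpus luteum, and the contralateral non-CL side. The 4 groups were CL-side summer, non-CL-side summer, CL-side autumn and non-CL-side autumn, with 3 arrays each. All 12 arrays carried RNA of whole biopsies of the same breed, tissue and cycle day, sampled over consecutive years. The labels do not say whether the replicates of a group were separate cows, so p-values measure only the spread among these samples, which may be technical.

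Each gene was read by 1 probe of 60 bases, and a stretch of 30 bases is shown for each, because the whole account of a gene rests on that probe. The sequences are from the deposited scanner files and run 5′ to 3′, and capitals mark AATAAA, the hexamer that directs cleavage and polyadenylation of a transcript.
C1QA: gtggttctgtgtgtatgctggggtgccatt
C1QB: ccctaaatgattgaatAATAAAtgacctct
C1QC: aggaggcacacaAATAAAtaactaaatcaa
C3: gcgccctggagctggccaggagtgacctgg
C8B: gtgccattcagaatgtttaaAATAAAgata
AATAAA stood in 3 of the 5 probes, those for C1QB, C1QC and C8B, and in 11.3% of the 15208 probes on the array. On either strand it stood in 14.9% of probes, and the reverse letters TTTATT were in no member's probe. The C3 probe had a GC content of 73.3%, higher than that of 99.5% of the probes on the array, where the median was 43.3%. The C1QB probe had a GC content of 35.0%, and C1QA, C1QC and C8B each had 45.0%. The C1QB probe repeats a word of 11 bases within itself, while 0.842% of probes repeat a word of 10 or more. None of the member probes shared a word of 16 bases with any other probe, on either strand. In the ARS-UCD2.0 gene table the 3 C1q genes are on chromosome 2, while C3 is on chromosome 7 and C8B on chromosome 3.

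The values below are log2 of a probe's background-subtracted signal divided by the 75th percentile of its array, so 0 is the signal of a probe at that percentile. Levels of different probes are not set against each other. The percentile lay between 3516 and 4418 on 11 arrays and at 2007 on replicate 2 of the CL side in summer, which is named the dim array here. That array correlated with the others at a median r of 0.928, while all pairs among the other 11 reached 0.972 or more. Values without that array are given beside many of the results below. All 6 summer arrays and the first replicate of each autumn group lay on 1 slide, and the other 4 autumn arrays on a second slide.

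C1QB and C1QC were well above background on all 12 arrays. C1QB measured 1.67, −0.11 and 1.78 in CL-side summer, against 1.16, 2.44 and 1.27 in CL-side autumn. It measured 1.55, 1.35 and 1.73 in non-CL-side summer, against 1.56, 1.03 and 1.52 in non-CL-side autumn. The dim array was the lowest and CL-side autumn replicate 2 the highest of the 12, the other 10 lay between 1.03 and 1.78, and the groups overlapped in every comparison.

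C1QC measured −0.38, −1.76 and −0.48 in CL-side summer, against −0.71, 0.59 and −0.80 in CL-side autumn. It measured −0.37, −0.41 and −0.20 in non-CL-side summer, against −0.61, −0.87 and −0.72 in non-CL-side autumn. The same arrays as for C1QB were the lowest and the highest. In the non-CL horn the 3 summer values lay above the 3 autumn values, while in the other comparisons the groups overlapped.

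The C1QA probe was well above background on all 12 arrays but dim, with processed signals of 106 to 188. It measured −4.78, −3.85 and −4.70 in CL-side summer, against −4.76, −4.98 and −4.60 in CL-side autumn. It measured −5.25, −4.27 and −4.72 in non-CL-side summer, against −4.97, −4.96 and −5.23 in non-CL-side autumn. Here the dim array was the highest of the 12, the reverse of its place for C1QB and C1QC, and the groups overlapped.

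The C3 probe hardly rose above background. Its processed signals were 25.7, 41.8 and 19.5 in CL-side summer, against 110 (replicate 1), 32.6 and 20.1 in CL-side autumn. They were 19.6, 23.6 and 32.3 in non-CL-side summer, against 14.0, 16.8 and 37.6 in non-CL-side autumn. C3 was well above background on 7 of the 12 arrays, in no group on all 3, and 6 arrays lay at the floor of −7.28 below which values were not ordered. It therefore did not pass the filter on dim probes and was not tested in the fit. A probe at background shows that this probe read little, and does not give the amount of C3 transcript in the tissue.

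C8B was also dim, with processed signals of 22.5 to 113. It measured −6.52, −4.46 and −5.17 in CL-side summer, against −7.25, −7.16 and −7.28 in CL-side autumn. It measured −6.75, −5.96 and −6.46 in non-CL-side summer, against −6.16, −6.50 and −6.08 in non-CL-side autumn. CL-side autumn held the 3 lowest of the 12 values, and its replicate 3 was not well above background and sat at the floor. CL-side summer held the 2 highest.

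**Figure D1:**
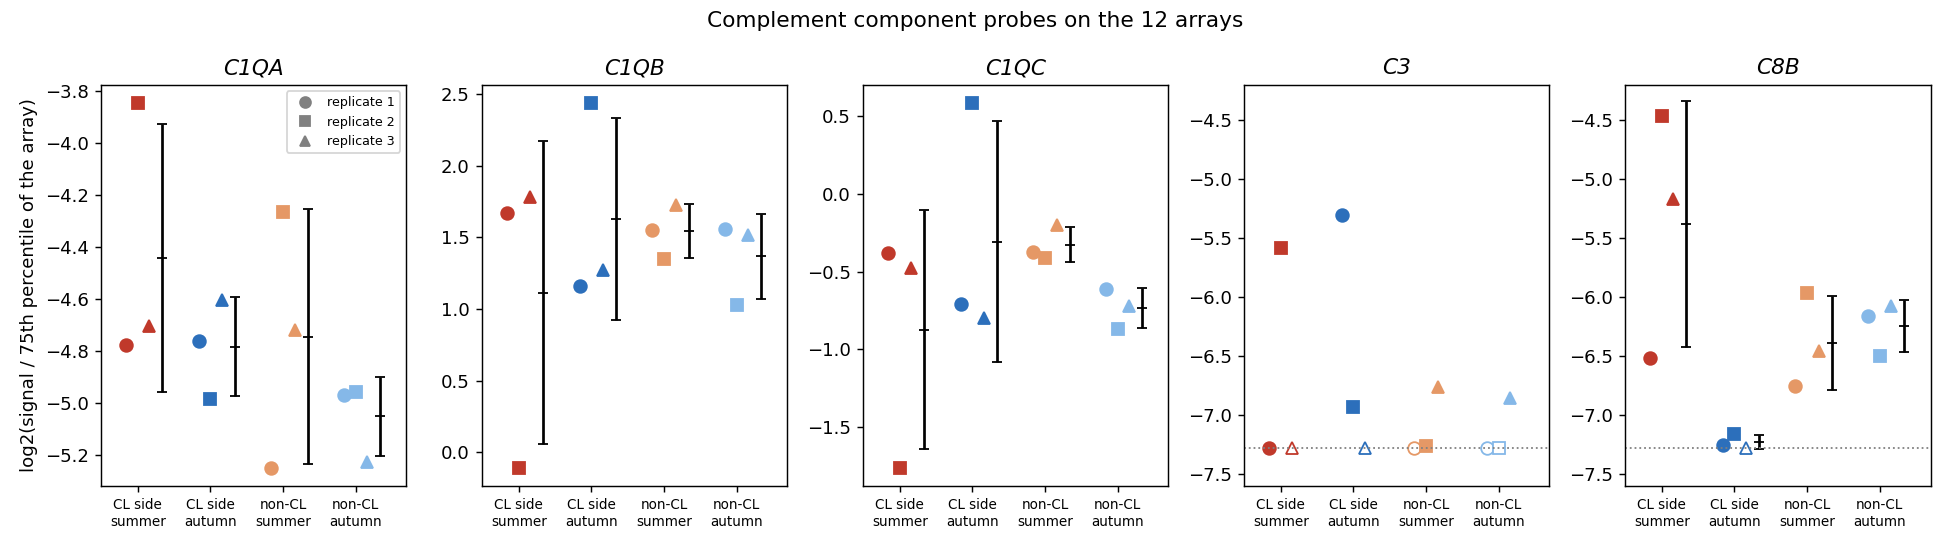
Log2 signal relative to the 75th percentile of each array for the 5 complement probes, with 1 point per array and marker shape for the replicate number. Open points were not well above background, bars are the mean ± SD of 3 arrays (not drawn for C3), and the dotted line is the floor of −7.28. C1QB and C1QC fall on the dim array (squares, CL-side summer) where C1QA and C8B are highest, and C8B is lowest in CL-side autumn. Before scaling, the dim array's signals of C1QA (139) and C8B (91.1) were not the highest of the 12 arrays.

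The question behind the design is how the endometrium differs between summer and autumn, and whether the horn beside the corpus luteum behaves like the other. On the CL side the C1QB level averaged 1.11 ± 1.06 in summer and 1.62 ± 0.70 in autumn, and that of C1QC −0.87 ± 0.77 in summer and −0.31 ± 0.77 in autumn (SD, n = 3 each). The level of C1QA averaged −4.44 ± 0.52 in summer and −4.78 ± 0.19 in autumn, and that of C8B −5.38 ± 1.04 in summer and −7.23 ± 0.06 in autumn (SD, n = 3 each). The log2 differences, summer minus autumn, were −0.51 for C1QB (95% confidence interval −1.58 to 0.56), −0.57 for C1QC (−1.47 to 0.34) and 0.34 for C1QA (−0.30 to 0.98). None of the 3 chains passed the test in limma, with adjusted p values of 0.688, 0.596 and 0.651. The biopsies are whole tissue, so fewer cells of a type and less RNA per cell cannot be told apart in any of these differences.

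The differences of the C1q chains on the CL side moved with single arrays. With the dim array left out, C1QB turned to 0.10, C1QC shrank to −0.12 and C1QA to 0.04. Without CL-side autumn replicate 2, where both were the highest of all arrays, C1QB differed by −0.10 and C1QC by −0.12.

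C8B had the widest season difference of the 4 tested members, 1.85 ± 0.42 on the log2 scale on the CL side (SE; 95% confidence interval 0.91 to 2.78), with no overlap between the groups. Its unadjusted p was 0.00123 and its adjusted p 0.496 in limma, so it did not pass. C8B was the only 1 of the 4 tested members with an unadjusted p under 0.05 there, as against 9.92% of the 12381 probes tested, and groups that did not overlap with summer higher were found for 7.97% of probes, and in either direction for 13% of them. No probe on the array passed an adjusted p of 0.05 in limma in this comparison (0%), and 1228 had an unadjusted p under 0.05. The fitted 3.60-fold difference depends on the floor, since 1 of the 3 autumn arrays lay on it.

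The size of the C8B difference moved with the treatment of low signals. It was 0.79 with a model-based background correction in place of the scanner's, and 0.14 in the authors' deposited values, where CL-side autumn replicate 1 stood at −4.11. Within the first slide it was 1.87, from 3 summer arrays and 1 autumn array. Without CL-side summer replicate 1 it was 2.41 with an adjusted p of 0.0430 in limma, and without the dim array it was 1.39. Over all alternatives the adjusted p ranged from 0.0430 to 0.964.

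Markers of several other cell types had season differences on the CL side beside that of C8B, and none passed an adjusted p of 0.05. Of 12 listed granulocyte and mast cell markers 4 had a probe, CXCR1, LTF, S100A8 and S100A12, so no mast cell marker was read. CXCR1 was well above background on 8 of the 12 arrays. All 4 markers lay above 0 and had an unadjusted p under 0.05, as against 9.92% of all probes, with a median of 2.05. Their summed log2 level was 3.93, 7.77 (the dim array) and 3.63 in summer and ranged from 1.47 to 3.04 in autumn. The median was 1.73, with 4 of 4 above 0, when the dim array was left out.

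Over all probes in this comparison 9.92% had an unadjusted p under 0.05 in limma, and 6559 of 12381 lay above 0. Of 17 epithelial markers 15 lay above 0 and 7 had an unadjusted p under 0.05 (median 0.76), with summed levels of 5.94 to 6.92 in summer and 5.70 to 5.88 in autumn. All 12 stromal markers lay below 0 and 7 had an unadjusted p under 0.05 (median −0.86), with summed levels of 6.35 to 7.23 in summer and 7.31 to 7.59 in autumn. When the dim array was left out, 14 of 17 epithelial markers lay above 0 (median 0.52, highest summer sum 6.16) and 12 of 12 stromal markers below 0 (median −0.71, lowest summer sum 6.90). Of 16 T and NK cell markers 15 lay above 0 and 6 had an unadjusted p under 0.05 (median 0.57), with summed levels of 1.69 to 3.10 in summer and 1.22 to 1.83 in autumn. All 4 B and plasma cell markers lay above 0 (median 0.53), with summed levels of 0.76 to 1.45 in summer and 0.09 to 1.70 in autumn. Of 16 interferon-stimulated genes 14 lay above 0 and 6 had an unadjusted p under 0.05 (median 0.41), with summed levels of 3.75 to 4.11 in summer and 3.36 to 3.60 in autumn. Those 3 medians were 0.46, 0.28 and 0.34 when the dim array was left out. Of 9 endothelial markers 5 lay above 0 and 4 below (median 0.01), and none had an unadjusted p under 0.05. Their summed levels were 2.87 to 3.04 in summer and 2.77 to 3.02 in autumn, and their median without the dim array was −0.03.

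Markers of blood and liver, the main source of C8 in humans and mice, had summed levels of 1.67 to 2.96 in summer and 2.18 to 2.81 in autumn. Of 6 tested, 4 lay above 0 and 2 below (median 0.20), and 1 had an unadjusted p under 0.05 in limma, as against 9.92% of all probes. When the dim array was left out, 5 lay above 0 and 1 below (median 0.20). Of the 9 with a probe, 5 stood well above background on each of the 12 arrays, and 2, FGA and HBA, on none. The part of these cell types in the C8B difference was not tested.

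On the non-CL side the differences were small. C1QC averaged −0.33 ± 0.11 in summer and −0.73 ± 0.13 in autumn (SD, n = 3 each), a log2 difference of 0.41 (95% confidence interval −0.50 to 1.31), and its groups did not overlap. Groups that did not overlap with summer higher were found for 2.62% of probes in this comparison, and in either direction for 6.07%. The adjusted p of C1QC was 1 in limma and its unadjusted p 0.342. The fit takes its spread from all 4 groups, and C1QC had an SD of 0.77 in each season on the CL side. C1QB differed by 0.17 (−0.90 to 1.24), C1QA by 0.31 (−0.34 to 0.95) and C8B by −0.15 (−1.08 to 0.79). None of the 4 tested members had an unadjusted p under 0.05, as against 1.12% of 12383 probes, and no probe passed an adjusted p of 0.05.

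Between the horns, CL side minus non-CL side, C1QB and C1QC lay lower on the CL side in summer and higher in autumn, with no difference past the test. In summer C1QB differed by −0.43 (95% confidence interval −1.50 to 0.64) and C1QC by −0.55 (−1.45 to 0.36). In autumn C1QB differed by 0.26 (−0.81 to 1.33) and C1QC by 0.43 (−0.48 to 1.33). The summer differences without the dim array were 0.18 for C1QB and −0.10 for C1QC. Without CL-side autumn replicate 2 the autumn differences were −0.15 for C1QB and −0.02 for C1QC. C1QA differed by 0.30 (−0.34 to 0.94) in summer and by 0.27 (−0.37 to 0.91) in autumn.

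C8B differed between the horns by 1.01 ± 0.42 in summer (SE; unadjusted p = 0.0369, adjusted p = 0.984 in limma) and by −0.99 ± 0.42 in autumn (unadjusted p = 0.0403, adjusted p = 1). It was the only 1 of the 4 tested members with an unadjusted p under 0.05 in either season, as against 1.41% of 12389 probes in summer and 1.86% of 12378 in autumn. In autumn its groups did not overlap, which held, with the CL side lower, for 5.55% of probes. By same-numbered horns the C8B differences were 0.24, 1.50 and 1.29 in summer and −1.09, −0.67 and −1.20 in autumn. The summer difference without the dim array was 0.55, and in the authors' deposited values the autumn difference was 0.31, with the sign turned.

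The contrast of the season differences, CL side minus non-CL side, was 1.99 ± 0.60 for C8B (SE; unadjusted p = 0.00699, adjusted p = 0.999 in limma), and 1.88% of 12375 probes had an unadjusted p under 0.05 in it. It was −0.68 ± 0.68 for C1QB, −0.97 ± 0.58 for C1QC and 0.04 ± 0.41 for C1QA (SE). With each pair of same-numbered horns averaged first, so that a season held 3 values, summer minus autumn was 0.85 ± 0.34 for C8B (SE; unadjusted p = 0.0453, adjusted p = 0.895), as against 4.02% of 12391 probes with an unadjusted p under 0.05. It was −0.17 ± 0.31 for C1QB, −0.08 ± 0.27 for C1QC and 0.32 ± 0.25 for C1QA (SE). No member passed an adjusted p of 0.05 in any of the 6 comparisons, and neither did any other probe on the array.

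**Figure D2:**
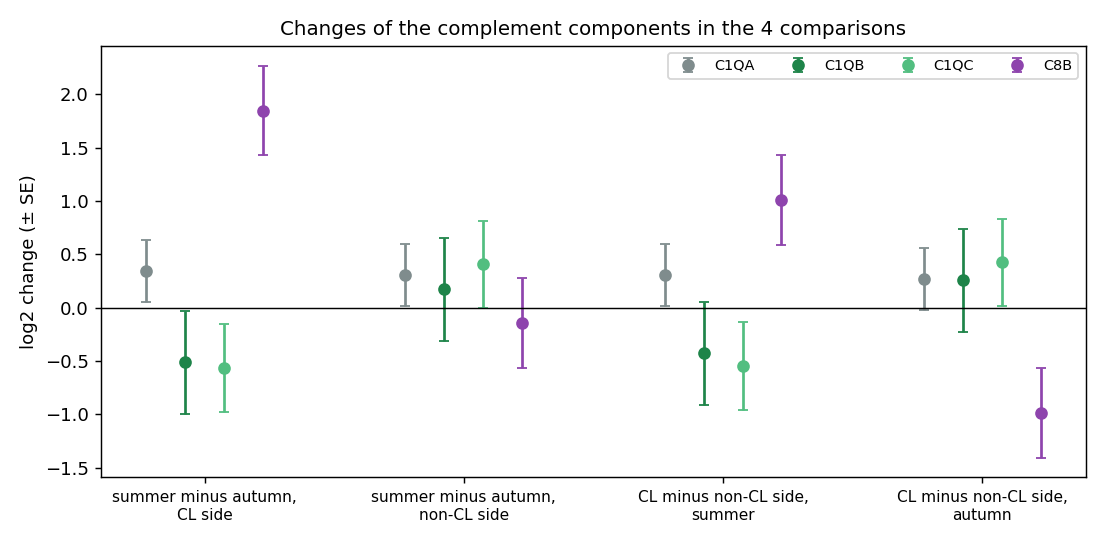
Log2 changes (± SE from the fit over 12 arrays) of C1QA, C1QB, C1QC and C8B in the 4 comparisons between groups, with positive values higher in summer or on the CL side. C8B stands at 1.85 for season on the CL side and −0.99 between the horns in autumn, and the 3 C1q chains lie between −0.57 and 0.43.

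The design sets the macrophage-made C1q chains against C3 by the difference of their changes within arrays. These differences ranged from −0.94 (C1QC, between the horns in summer) to 0.55 (C1QA, season on the CL side) on the log2 scale. Exact two-sided permutation tests over 20 splits of the 6 arrays gave p values of 0.2 to 1, and 1 for all 12 after adjustment, where the smallest p the design allows is 0.1. C3 was at the floor on 6 arrays, where its values have no order, and signs turned with the scaling. The same comparison was not made for C8B, which was not well above background on every array.

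C1QB and C1QC moved together across the 12 arrays, while C1QA did not move with them. For C1QB and C1QC Pearson's r was 0.950 (permutation p = 0.00014, adjusted over 6 pairs of members 0.00084) and Spearman's rho was 0.832 (permutation p = 0.00162, adjusted 0.00972). Without the 2 arrays farthest from the median of C1QB, the dim array and CL-side autumn replicate 2, r was 0.746. It was 0.964 for deviations from the group means, 0.930 over 6 means of same-numbered horns and 0.960 on the first slide. The permutations shuffled all 12 arrays freely, without regard to groups or same-numbered horns. The permutation p values of all pairs of members may therefore be too small.

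C1QA correlated with C1QB at r = −0.661 (permutation p = 0.0313, adjusted 0.0835; rho = −0.343, permutation p = 0.276, adjusted 0.418) and with C1QC at r = −0.536 (permutation p = 0.0835, adjusted 0.0835; rho = −0.343, permutation p = 0.273, adjusted 0.418). Without the dim array r was −0.192 with C1QB and −0.048 with C1QC, so the negative relation rested on that array. C8B correlated with C1QC at r = −0.572 over the 12 arrays (permutation p = 0.0611, adjusted 0.0835; rho = −0.217, permutation p = 0.498, adjusted 0.598), and at −0.165 without the dim array.

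**Figure D3:**
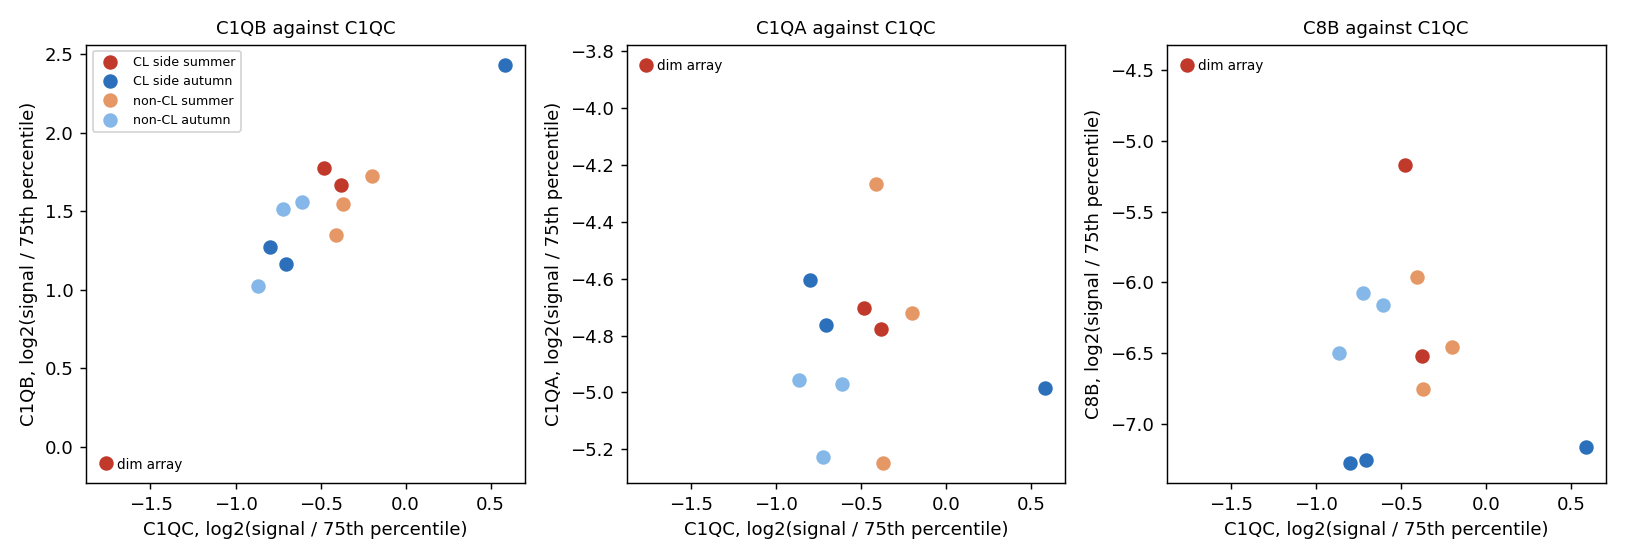
C1QB, C1QA and C8B against C1QC, each as log2 signal relative to the array's 75th percentile, with 1 point per array coloured by group. C1QB rises with C1QC (r = 0.950), and for C1QA and C8B the dim array at the upper left stands away from the other 11.

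Of 5713 genes with a kept probe, those most like C1QB over the 12 arrays were MRC1, the mannose receptor (r = 0.968), VSIG4, a complement receptor of tissue macrophages (0.966), AIF1, a macrophage activation marker (0.964), C1QC (0.950) and MSR1, a scavenger receptor (0.932). Without the dim array these values were 0.935, 0.914, 0.939, 0.908 and 0.883. For C1QC they were C1QB (0.950), the lysosomal proteases CTSH (0.919) and CTSB (0.911), VSIG4 (0.914) and AIF1 (0.904). With the dim array left out, the order changed. For C1QB the first 4 places stayed with the same genes and GJB2, a gap junction gene, took the fifth (0.898, against 0.111 over 12 arrays). For C1QC only C1QB (0.908) stayed among the first 5, beside NEK2 (0.913), UPK1B (0.899), GJB2 (0.886) and LY9 (0.886), whose r over 12 arrays lay between −0.05 and 0.45. CTSH, VSIG4, CTSB and AIF1 then stood at 0.864, 0.860, 0.820 and 0.809 with C1QC. These likenesses are descriptions over 12 arrays that share scaling and pairs of horns.

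Among the genes most like C1QA were GRK2 (0.929), HAMP (0.907), SLC51B (0.903) and REEP2 (0.902), none of them on the list of macrophage markers. Those most like C8B were BPIFB2 (0.948), TBXA2R (0.947), STK17B (0.931), ODF3 (0.916) and BPHL (0.913). The lowest of these with the dim array left out was 0.780 for C1QA (SLC51B) and 0.831 for C8B (BPHL).

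Of 13 measured macrophage markers, 9 correlated above 0 with C1QB (median r 0.728), 10 with C1QC (0.644), 6 with C1QA (−0.253) and 5 with C8B (−0.150). Without the dim array all 13 lay above 0 with C1QB (median 0.622) and with C1QC (0.574), and 4 with C1QA and 4 with C8B. On the dim array MRC1 measured −4.10, VSIG4 −5.74, AIF1 −1.90 and MSR1 −5.38, each the lowest of the 12 arrays. On CL-side autumn replicate 2 they measured −0.99, −1.70, 0.20 and −2.15, each the highest. These genes were taken from those most like C1QB. Of the other macrophage markers, CD68 (−3.84), FCGR1A (−6.51) and FOLR2 (−7.12) were also lowest on the dim array. LYVE1 (−1.14), TLR4 (−1.89) and CD14 (−2.15) were each the highest of the 12 there.

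**Figure D4:**
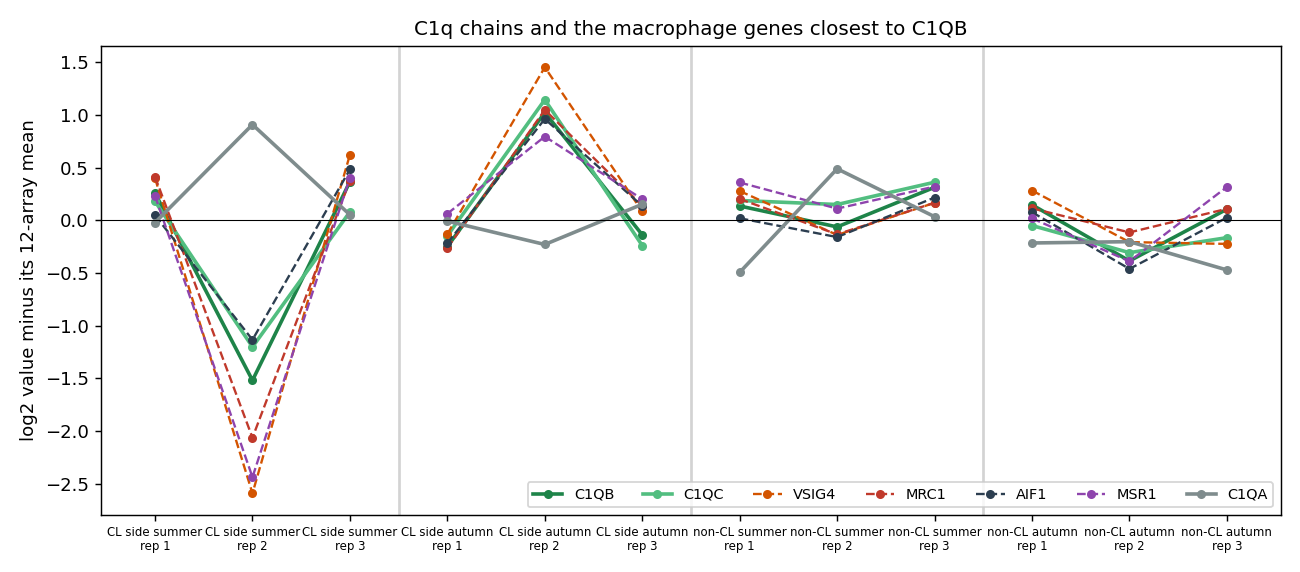
Log2 values minus the mean over 12 arrays for the 3 C1q chains (solid lines) and for VSIG4, MRC1, AIF1 and MSR1 (dashed lines), by group and replicate. C1QB, C1QC and these macrophage genes, drawn because they were among those most like C1QB, share a trough on CL-side summer replicate 2. They also share the peak on CL-side autumn replicate 2, and C1QA shares neither.

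The macrophage markers were also counted as a list. Of 27 listed, 14 had a probe and 13 were tested. In the season difference 4 lay above 0 and 9 below on the CL side (median −0.21, against 0.02 over all probes), and all 13 lay above 0 on the non-CL side (median 0.15). Between the horns the median was 0.00 in summer, with 7 above 0 and 6 below, and 0.40 in autumn, with 12 above 0 and 1 below. Over all probes 5273 of 12378 lay above 0 between the horns in autumn (median −0.04). None passed an adjusted p of 0.05 or an unadjusted p of 0.05 in these 4 comparisons. Those with the smallest unadjusted p for season on the CL side were TLR4 (0.46), the Fc receptor FCGR1A (−1.03), FOLR2 (−1.19) and MSR1 (−0.95). Without the dim array 6 lay above 0 and 7 below in the season difference on the CL side (median −0.03), and 11 above 0 and 2 below between the horns in summer (median 0.16). Their summed level ranged from 2.81 to 2.99 in CL-side summer and from 2.44 to 3.37 in CL-side autumn. It ranged from 2.67 to 2.83 in non-CL-side summer and from 2.56 to 2.75 in non-CL-side autumn. Such a sum is weighted to bright genes, and on the dim array CTSS alone measured 2.35 against a summed level of 2.81. The markers' mean deviation from their means over all arrays was lowest on the dim array, at −0.54, and highest on CL-side autumn replicate 2, at 0.71. It was −0.03 and −0.04 on the other CL-side autumn arrays, and −0.28 to −0.11 in non-CL-side autumn. The list was not read without CL-side autumn replicate 2. CD163 and CSF1R, defining macrophage markers, were on the list but had no probe among those that could be named. CD14, CD68, MRC1 and MSR1 were well above background on all 12 arrays. The part of macrophage number in the C1q values was not tested.

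The rest of the complement system was read from a list of 43 genes, of which 35 had a probe and 28 passed the filter. None of the 28 passed an adjusted p of 0.05 in any comparison. In the season difference on the CL side 16 lay above 0 and 12 below (median 0.15), with 5 at an unadjusted p under 0.05, as against 9.92% of all probes, and 3 did not overlap between the groups, as against 13% of all probes. On the non-CL side 18 lay above 0 and 10 below (median 0.13), with none at an unadjusted p under 0.05, as against 1.12% of all probes, and 2, PTX3 and C1QBP, did not overlap, as against 6.07%. On the CL side 15 lay above 0 and 13 below without the dim array (median 0.05). Over all probes the medians were 0.02 on the CL side and −8.2e-05 on the non-CL side.

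Among the C1 proteases, which C1q activates, C1S differed by −1.04 ± 0.47 in the season comparison on the CL side (SE; unadjusted p = 0.0491, adjusted p = 0.501). C1R differed by −0.70 ± 0.37 there, and its groups did not overlap. SERPING1, the inhibitor that removes these proteases from C1, measured 1.46, 1.24 and 1.52 in CL-side summer, against 1.98, 2.07 and 1.75 in CL-side autumn. It did not overlap between the groups, at −0.53 ± 0.18 (SE; unadjusted p = 0.0148, adjusted p = 0.496). Other genes of the classical pathway went both ways there. C4A (−0.62), C1QB (−0.51) and C1QC (−0.57) lay below 0, and C1QA (0.34), C2 (0.58) and the C1 protease homologue C1RL (0.02) above. Leaving out the dim array gave differences of −0.57 for C1S, −0.25 for C1R, −0.44 for SERPING1 and −0.26 for C4A.

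All 3 alternative pathway genes and 6 of 9 regulators lay above 0 in this comparison, while the regulators SERPING1, VTN (−0.07) and CD46 (−0.03) lay below. CFB, the protease of the alternative C3 convertase, measured 3.65, 5.30 and 0.95 in CL-side summer, against 1.29, 2.01 and −1.19 in CL-side autumn. Its season difference was 2.60 ± 1.14 (SE; unadjusted p = 0.0441, adjusted p = 0.501), with 2 summer arrays above every autumn array and 1 below the first 2. C4BPA, which encodes a chain of the inhibitor C4b-binding protein, measured −1.46, −1.70 and −5.48 in CL-side summer, against −3.66, −5.52 and −7.28 in CL-side autumn, a difference of 2.61 ± 1.15 (SE; unadjusted p = 0.0456, adjusted p = 0.501). The same 2 summer arrays stood high for both genes. CD55, a membrane regulator that dissociates C3 convertases, did not overlap between the groups, at 0.63 ± 0.23 (SE; unadjusted p = 0.0182, adjusted p = 0.496). CR2, a complement receptor of B cells, differed by 0.89 ± 0.41 (SE; unadjusted p = 0.0537). Leaving out the dim array gave 1.60 for CFB, 2.01 for C4BPA, 0.57 for CD55 and 0.35 for CR2. The other alternative pathway genes then turned below 0, CFD from 0.32 to −0.03 and CFP from 0.15 to −0.40. The regulator CLU went from 0.24 to −0.0018.

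On the non-CL side the genes with the smallest p were C5AR2, a receptor for C5a (0.59), C1RL (0.73), PTX3, a pattern recognition protein that binds C1q (1.01), C1QBP (−0.14), FCN1 (0.31) and CD59, which blocks the terminal complex (0.22). All 6 had an unadjusted p above 0.05. C8A, which encodes the alpha chain of C8 and so the partner of C8B, differed by 1.26 ± 0.91 on the CL side (SE; unadjusted p = 0.194, adjusted p = 0.596 in limma) and by 0.31 ± 0.91 on the non-CL side.

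**Figure D5:**
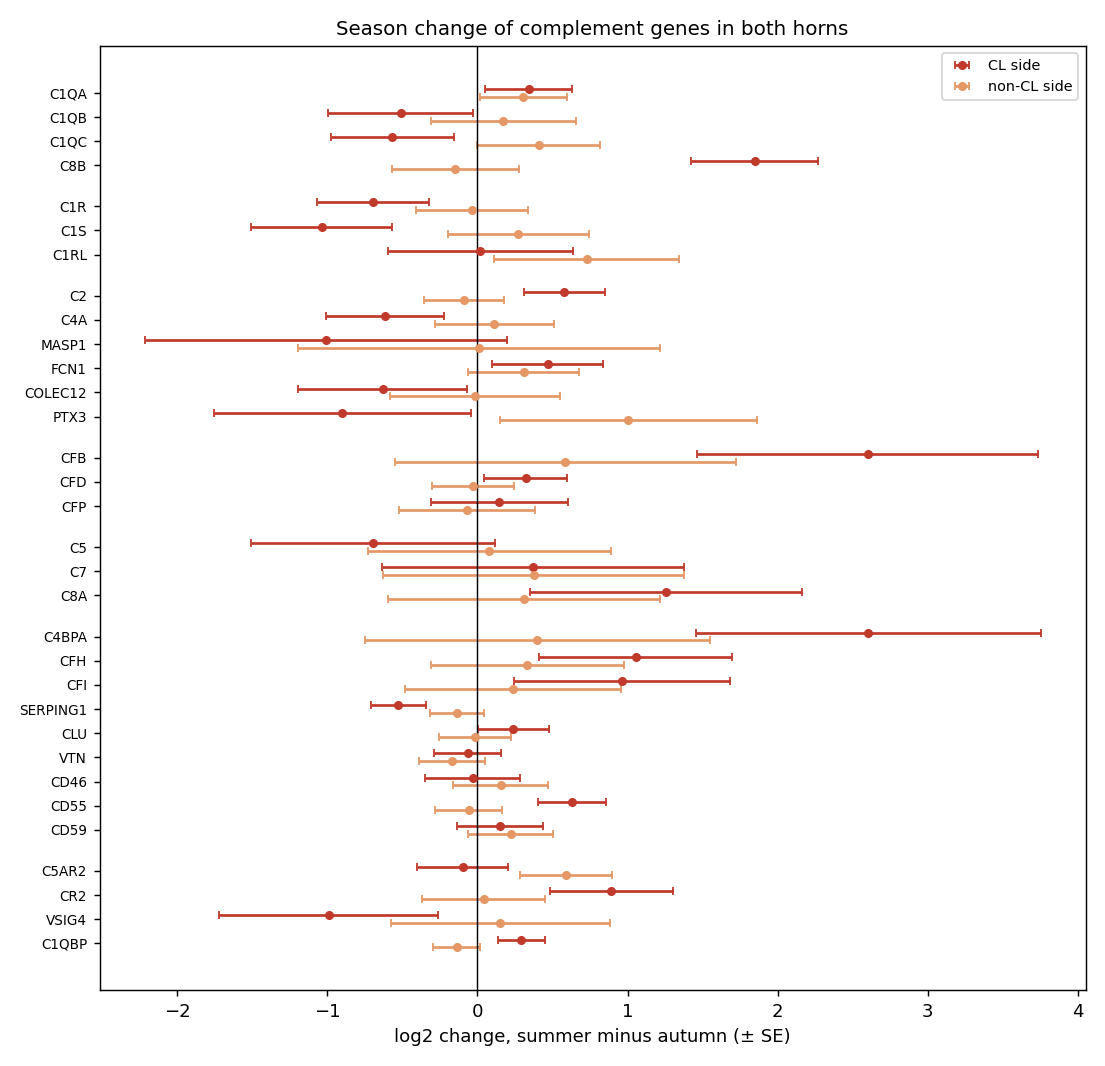
Log2 season change, summer minus autumn (± SE), of the 4 tested members (top) and 28 other complement genes in blocks by role, in the CL-side horn and the non-CL-side horn. CFB, C4BPA and C8B have the largest positive values on the CL side, at 2.60, 2.61 and 1.85, and the non-CL side values all lie between −0.17 and 1.01.

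Between the horns in summer, 17 of the 28 other complement genes lay above 0 (median 0.12), 3 had an unadjusted p under 0.05, as against 1.41% of all probes, and 4 did not overlap, as against 3.52%. The difference, CL side minus non-CL side, was 3.21 ± 1.14 for CFB, 3.23 ± 1.15 for C4BPA and 0.75 ± 0.27 for C2, the classical counterpart of CFB (SE; unadjusted p = 0.0173, 0.0176 and 0.0177). The adjusted p was 0.984 for each in limma. These were, without the dim array, 2.21 for CFB, 2.64 for C4BPA and 0.62 for C2. FCN1 differed by 0.79, CFD by 0.51 and C1S by −0.94, all with an unadjusted p above 0.05. In autumn 20 of the 28 lay above 0 (median 0.28), 1 had an unadjusted p under 0.05, as against 1.86% of all probes, and 2 did not overlap, as against 7.9%. That 1 was C1QBP, a mitochondrial protein that binds C1q, at −0.37 ± 0.16 (SE; unadjusted p = 0.0386, adjusted p = 1). CD55 (−0.46), C5AR2 (0.57), FCN1 (0.63), SERPING1 (0.27) and C4A (0.46) followed, each with an unadjusted p above 0.05.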

How the data were processed

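Total RNA (400 ng per sample, per the labels' protocols) was labelled with Cy3 and hybridised to 12 one-colour Agilent bovine arrays. The deposited scanner files hold spot intensities, read with Feature Extraction 9.5.1.1 and background-subtracted and detrended within each array, per the file headers; the submitters' processing notes name version 9.5. A second deposit of the authors is a table with log2 values, whose scale and handling of low signals are unknown; its columns ran in the same direction as the scanner values, with medians of −2.79 to −2.61 and correlations of 0.970 to 0.995, and it served as an alternative.

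Intensities of 15208 non-control probes were divided by the array's 75th percentile, floored at a log2 value of −7.28 (a step added after the values were seen, since 802 to 2092 signals per array were 0 or below) and put on the log2 scale. Outlier spots were left out, 466 values in all. Probes entered the fit when all 3 arrays of 1 group or more were well above background, which left 12404. Gene names came from the files and the ARS-UCD2.0 gene table for 7026 probes, with the brightest probe per gene, and 4 of these were named by hand from their descriptions.

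limma 3.58.1 (R 4.3.3) was fitted to all kept probes with 4 group means and 8 residual degrees of freedom, and to 6 means of same-numbered horns for season over both sides. P-values were adjusted by Benjamini-Hochberg over all probes tested. C1q and C3 were compared by exact permutation tests, and correlations by 100000 permutations that ignored groups and same-numbered horns. The fit was tested on simulated data. The number of arrays limits the precision. Alternatives were normexp background correction (offset 50), quantile scaling, the authors' values, no filter, slide and replicate blocks, the first slide alone and leaving out each array. The block over replicate numbers across seasons, and the values of the other complement genes and the marker lists without the dim array, were chosen after seeing the data.

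Same-numbered arrays resembled each other. Their deviations from the group means correlated at 0.27 to 0.50 between horns in summer, at 0.14 to 0.38 in autumn, and at 0.11 to 0.34 between seasons. The pairing comes from these values and not from the labels.

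The members and lists were chosen with earlier results of these data known. Named were the members, the up to 6 other complement genes and up to 4 macrophage markers with the smallest unadjusted p per comparison, and the 5 genes most like each member, of which 1 is not reported here. C1R, C1RL, C8A, VTN, CD46, CD14, CD68, FGA, HBA, CXCR1, LTF, S100A8, S100A12 and the genes most like C1QB and C1QC without the dim array were named beyond that rule, after their values were seen.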

Additional observations from a re-analysis of the deposited data

Results flagged for a closer look

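C8B was picked out because its difference between the horns ran in opposite directions in the 2 seasons. The CL side minus non-CL side difference was above 0 in all 3 same-numbered pairs in summer (0.24, 1.50 and 1.29) and below 0 in all 3 in autumn (−1.09, −0.67 and −1.20). The difference of the season changes between the sides was 1.99 on the log2 scale, with an unadjusted p of 0.00699 and an adjusted p of 0.999 in limma over 12375 probes. Over the alternatives it ranged from 0.24 in the authors' deposited values to 2.56 without CL-side summer replicate 1. In the authors' values the autumn difference was 0.31, so the directions were not opposite there. The CL-side autumn values of C8B, −7.25, −7.16 and −7.28, lay at or close to the floor. The pair signs and this contrast are the values by which C8B was picked, so they are not separate support.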

How the results depend on the processing

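No member passed the adjusted threshold under any alternative except C8B in the season difference on the CL side, which passed without CL-side summer replicate 1 (2.41, range over single arrays left out 1.39 to 2.41). Of 792 values under alternatives, 739 kept their direction and their side of the threshold. The fit with the replicate number as a block changed no call, and the C8B season difference on the CL side stayed at 1.85 with an adjusted p of 0.480 in that block. Leaving out 1 array at a time, the number of probes past an adjusted p of 0.05 ranged from 0 to 7 for season on the CL side, from 0 to 1 between the horns in summer, from 0 to 6 in autumn and from 0 to 1 for the contrast of the season differences. On the first slide alone 1 probe passed for season on the non-CL side.

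Signs that turned when 1 array was left out were all of values under the threshold. C1QA ranged from −0.26 to 0.27 in the contrast of the season differences. C1QB ranged from −0.84 to 0.10 for season on the CL side, from −0.41 to 0.074 over both sides, from −0.15 to 0.49 between the horns in autumn and from −0.76 to 0.18 in summer. C1QC ranged from −0.32 to 0.16 for season over both sides and from −0.019 to 0.67 between the horns in autumn. C8B ranged from −0.36 to 0.034 for season on the non-CL side. Minus the C3 change, C1QA ranged from −0.040 to 1.03 for season on the CL side, from −0.050 to 0.43 on the non-CL side, from −0.25 to 0.24 between the horns in summer and from −0.84 to 0.22 in autumn. C1QB minus C3 ranged from −1.13 to 0.87 for season on the CL side, from −1.43 to 0.36 between the horns in summer and from −0.998 to 0.45 in autumn. C1QC minus C3 ranged from −1.16 to 0.65, from −1.46 to 0.073 and from −0.87 to 0.59 in the same comparisons.

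Other signs turned as follows, and the cause was not tested. With normexp, C1QA minus C3 was 0.021 between the horns in summer. With quantile scaling C1QA was −0.0046 in the contrast of the season differences. Minus C3, C1QB was then 0.13 and C1QC 0.093 for season on the CL side, C1QA was −0.20, C1QB −0.28 and C1QC −0.072 on the non-CL side, and C1QA was 0.071 between the horns in summer. In the authors' values C8B was 0.31 between the horns in autumn and C1QA −0.14 in the contrast. With slide as a block C1QC was 0.058 for season over both sides. On the first slide alone C1QB was −0.018 for season on the non-CL side and −0.40 between the horns in autumn, C1QC was −0.10 between the horns in autumn and 0.058 over both sides, and minus C3 C1QB was 1.36 and C1QC 1.25 for season on the CL side, and C1QB was −0.19 on the non-CL side.

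No other probe of a member existed to set beside the 1 used, and the C1q minus C3 differences were not run with blocks or without the filter. The slide is partly confounded with season. C1QA, C3 and C8B were read at signals near background, which limits what their differences can show.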
